A study of Mus musculus with 35 samples.

Results

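Cadherins and the adhesion molecules of synapses form the contacts by which neural cells hold to one another, and 77 such genes were followed here through the loss of the RNA methyltransferase subunit Mettl14 in mouse neural progenitor cells. The genes were taken by name from 22961 gene keys shared by the RNA tables of both batches: 23 cadherins (Cdh), 11 non-clustered protocadherins (Pcdh), 8 giant and polarity cadherins (Fat, Dchs and Celsr), 16 synaptic organisers (neurexins, neuroligins, Lrrtm and Slitrk genes), 4 Lrrn genes and 15 contactins, contactin-associated proteins and Ncam genes. The name pattern does not take in the clustered protocadherins, which share a long locus and constant exons. Of the 77, 57 passed the low-count filter and were tested, 19 fell below it, and Lrrtm1 shared a locus with Ctnna2 in the batch 1 table and could be tested only in batch 3.

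The cells were cultured progenitors from mouse embryos of 3 Mettl14 genotypes: wild type (WT), heterozygote (Het) and homozygous null (KO). Mettl14 is the partner of the catalytic subunit Mettl3 in the enzyme complex that writes the mark N6-methyladenosine (m6A) into messenger RNA. Per the labels' protocols, the allele was made by placing loxP sites in Mettl14 by gene targeting in embryonic stem cells. The selection cassette was removed with an Flpe recombinase transgene. EIIa-Cre, active in the early embryo, gave a germ-line null allele, and nestin-Cre gave a deletion in neural cells, and the labels do not say from which cross each culture came. RNA was sequenced from 3 WT, 3 Het and 3 KO cultures in batch 1 and from 2 WT (lines 532 and 541) and 2 KO (lines 530 and 534) cultures in batch 3. Histone H3 acetylated at lysine 27 (H3K27ac, a mark of active promoters and enhancers) and trimethylated at the same residue (H3K27me3, the mark of Polycomb repression) were mapped by chromatin immunoprecipitation in lines of those same numbers. Regions of m6A were mapped in WT cells from 2 immunoprecipitates and 2 inputs. The labels number each culture as a separate line but do not say how many animals they came from, so p-values measure the spread between these lines.

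Cadherins are membrane proteins whose extracellular repeats bind the same cadherin on a neighbouring cell when calcium is present, and whose tails in the classical members are tied to actin by catenins. In the embryonic brain, N-cadherin (Cdh2) junctions hold progenitors together at the ventricular surface, and the other cadherins are expressed in patterns that sort regions and cell types. Neurexins on axons bind neuroligins and Lrrtm proteins on the receiving cell, while Slitrk proteins bind receptor tyrosine phosphatases, and these pairs organise synapses once neurons form. Fat4 and Dchs1 bind each other across cell borders, and the Celsr proteins carry planar polarity together with Vangl and Frizzled proteins.

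Promoter sequences are printed for 4 members with a histone mark, described below, called in both lines of one genotype and in neither line of the other. Lrrtm3, Pcdh15 and Lrrtm4 are the members with H3K27ac of that kind and a sequence in the table, and Cntn1 had H3K27me3 of that kind with the largest RNA fall among those tested. Cdh6, Cdh12 and Cdh15 also had H3K27me3 by genotype, and their sequences are not printed. Each run is the 250 bases upstream of the RefSeq start, 5′ to 3′ on the gene's strand, from RefSeq's GRCm38.p6 table (the mm10 build of the files), with each CG pair in capitals. Lrrtm3 lies on chr10:64090256-64090505 (minus strand), Pcdh15 on chr10:73821617-73821866 (plus strand), Lrrtm4 on chr6:80018627-80018876 (plus strand) and Cntn1 on chr15:92050915-92051164 (plus strand).
Lrrtm3: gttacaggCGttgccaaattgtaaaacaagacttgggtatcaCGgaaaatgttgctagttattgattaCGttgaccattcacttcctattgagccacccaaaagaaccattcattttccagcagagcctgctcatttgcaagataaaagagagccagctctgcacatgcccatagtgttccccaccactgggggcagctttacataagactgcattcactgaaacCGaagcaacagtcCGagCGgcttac
Pcdh15: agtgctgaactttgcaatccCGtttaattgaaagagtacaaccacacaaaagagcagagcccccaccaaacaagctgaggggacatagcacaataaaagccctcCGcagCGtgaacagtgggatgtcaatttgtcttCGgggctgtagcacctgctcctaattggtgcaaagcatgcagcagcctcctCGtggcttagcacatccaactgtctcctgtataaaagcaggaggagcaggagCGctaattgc
Lrrtm4: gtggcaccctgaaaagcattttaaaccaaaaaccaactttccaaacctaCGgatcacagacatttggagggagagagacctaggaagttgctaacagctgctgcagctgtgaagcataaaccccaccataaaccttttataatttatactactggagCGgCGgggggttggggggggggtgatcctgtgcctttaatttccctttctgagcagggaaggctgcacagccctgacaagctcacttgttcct
Cntn1: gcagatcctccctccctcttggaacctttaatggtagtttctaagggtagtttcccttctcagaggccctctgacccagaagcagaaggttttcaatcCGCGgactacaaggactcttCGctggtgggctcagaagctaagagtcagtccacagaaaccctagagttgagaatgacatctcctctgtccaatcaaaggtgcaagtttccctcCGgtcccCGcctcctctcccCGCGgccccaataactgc
These upstream windows held 6 CG pairs for Lrrtm3, 6 for Pcdh15, 3 for Lrrtm4 and 7 for Cntn1, against a median of 6 over the promoters of 27025 gene symbols and of 9 over the 52 members with a sequence in the table. The 21 members with H3K27ac at a start in all 4 lines and a sequence had a median of 16 CG pairs (5 to 32). The motif TATAAA, searched on both strands, was found in the windows of Pcdh15 and Lrrtm4, in 3 of the 52 members and in 12.98% of all promoters in the table.

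The 13 RNA libraries held 14087371 to 20046524 fragments. Counts at the whole Mettl14 locus, which do not measure the deleted part alone, were 23.8 ± 1.11 CPM (fragment counts relative to library size; SD, n = 3) in WT and 22.4 ± 1.42 (n = 3) in KO of batch 1, and 38.4 ± 1.95 (n = 2) and 27.8 ± 5.66 (n = 2) in batch 3. Markers of progenitors (Nes, Sox2, Vim and 7 others) were present in every library. Their summed level was 7931 to 8566 CPM in WT and 4893 to 5330.0 CPM in KO of batch 1, and 8199 to 8685 against 5555 to 5782 CPM in batch 3. Of the 10, 2 were called higher in KO (Sox2, from 380.3 ± 49.5 to 779.9 ± 34.2 CPM in batch 1, SD, n = 3 and 3, and Slc1a3) and 5 lower (Nes, Vim, Fabp7, Pax6 and Prom1). Of the 7 astrocyte markers, 6 were called higher in KO and Aldh1l1 lower, and their summed level was 463 to 644 CPM in WT, 697 to 992 in Het and 2173 to 3764 in KO of batch 1, and 286 to 349.9 against 524 to 689 CPM in batch 3. Apoe made up most of the astrocyte sum in KO of batch 1 (2231 ± 633 CPM, against 214 ± 70.4 in WT; SD, n = 3 each). The part of these marker shifts in the results below was not tested. In bulk RNA, fewer cells of a type and less RNA per cell cannot be told apart. The neuronal list (Tubb3, Dcx, Map2 and 7 others) ran from 1201 to 1255 CPM in WT and from 1072 to 1289 CPM in KO of batch 1, and from 1121 to 1276 and from 919 to 1114 CPM in batch 3, with 1 of 10 genes called higher and 4 lower. The oligodendrocyte-lineage list overlapped between WT (1463 to 1818 CPM) and KO (1259 to 1524 CPM) in batch 1 and was higher in KO in batch 3 (2669 to 3019.6 against 2154 to 2294 CPM). Of its 7 tested genes, 2 were called higher and 2 lower (Olig2 and Cspg4 were the lower ones). Summed levels of the microglial, endothelial and Schwann or neural crest lists reached at most 2.27, 5.87 and 1.58 CPM in any library, and Foxd3 was at 0 throughout. The fibroblast and pericyte list was low but higher in KO (16.5 to 16.9 against 5.10 to 5.91 CPM in batch 1, and 9.96 to 19.7 against 3.04 to 6.69 CPM in batch 3). Of its 5 tested genes, 4 were called higher (Col3a1, Pdgfrb, Acta2 and Tagln) and 0 lower, while Dcn and Lum were at or near 0.

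Most of the adhesion genes tested differed between KO and WT, in both directions and by larger steps than the typical gene. Of the 57 members tested over both batches with batch as a covariate, 40 were called (70.2%), 23 higher and 17 lower in KO than in WT. The same test called 63.6% of all 13471 genes, 32.8% higher and 30.8% lower, so the share of members called was near the background. These shares of all genes also apply to the counts for marker lists above and for families and partner lists below. The median size of the log2 fold change, sign ignored, was 0.93 for the members and 0.44 for all genes, and the signed medians were 0.19 and 0.03. In Het against WT, where 0 members were called, the median size was also larger in the members (0.15 against 0.10). In 34 of the 57 members, the KO libraries lay wholly on one side of the WT libraries, in the same direction, in both batches (19 higher and 15 lower), which held for 47.8% of all genes tested. The largest falls were in Cdh19, Pcdh20, Cntn1, Pcdh15, Lrrn4 and Lrrtm3, and the largest rises in Slitrk6, Lrrtm4, Cdh11, Lrrn2 and Pcdh18. Pcdh20, Lrrn4 and Slitrk6 were at low counts. Adjusted p-values here and below are from edgeR's quasi-likelihood test with Benjamini-Hochberg adjustment over all genes tested, with 0.05 as the threshold for a call.

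**Figure D1:**
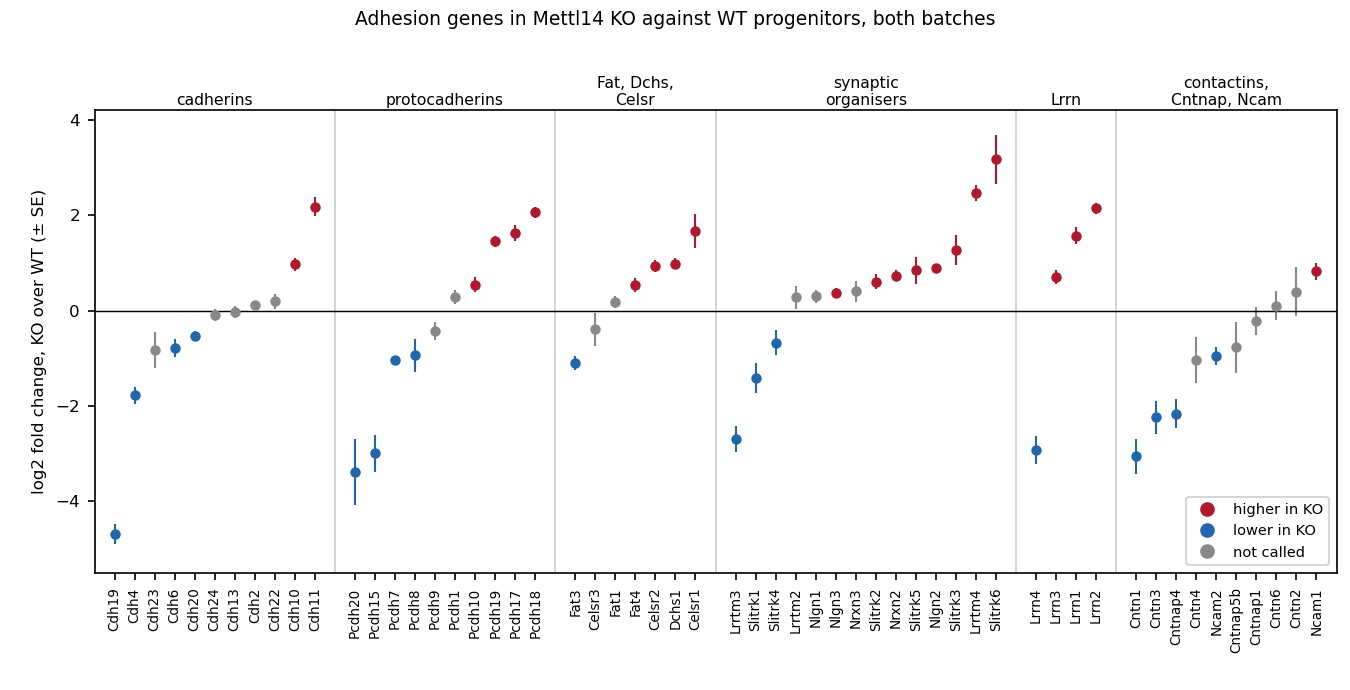
Log2 fold change of KO over WT, fitted over both batches, for the tested members named on the axis (vertical axis, ± SE), grouped by family and ordered within it (horizontal axis). Red points are called higher in KO, blue points lower, and grey points are not called. Cdh19, at -4.68, is the lowest point and Slitrk6, at 3.17 and with low counts, the highest, and the contactin family has 4 blue points of 10.

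Among the classical and other cadherins, 2 of the 11 tested members rose, 4 fell and 5 were not called. Cdh19, a type II cadherin known from Schwann cell precursors and glia (chr1:110889195-110977372, minus strand, mm10), had the largest fall of the members. Its level was 19.1, 20.2 and 20.8 CPM in the WT libraries of batch 1, 24.4, 25.7 and 26.4 in Het and 0.415, 0.710 and 0.951 in KO. In batch 3 it was 25.1 and 42.3 CPM in WT and 1.08 and 1.95 in KO. Every KO library was lower than every WT and Het library, and over batches Cdh19 fell by 4.68 on the log2 scale (SE 0.21, adjusted p = 5.8e-09), which was the lowest adjusted p of the members. The Schwann and neural crest list gave no more than 1.58 CPM in any library, and which cells carried the Cdh19 RNA was not tested.

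Cdh4, the R-cadherin of the developing brain and retina (chr2:179442478-179899375, plus strand), was among the best expressed cadherins and also fell. Libraries of batch 1 had 175, 196 and 226 CPM in WT, 184, 208 and 226 in Het and 37.1, 42.3 and 47.4 in KO, and those of batch 3 had 252 and 287 in WT and 123 and 127 in KO. The groups did not overlap in either batch, and Cdh4 fell by 1.78 on the log2 scale (SE 0.18, adjusted p = 2.8e-06). Cdh6, a type II cadherin that marks regional borders in the forebrain, was lower in KO. Its WT libraries had 7.13, 8.48 and 8.90 CPM and its KO libraries 3.60, 5.05 and 6.28 CPM in batch 1, and 5.44 and 5.71 against 2.29 and 3.76 CPM in batch 3, and over batches it fell by 0.78 on the log2 scale (SE 0.19, adjusted p = 0.0025). Cdh20, the member with the highest length-scaled level of the family in WT of batch 1 (36.6 ± 2.49 FPKM, which also takes transcript length into account, n = 3), also fell. Its levels were 121, 125 and 127 CPM in WT and 68.8, 76.4 and 93.4 CPM in KO of batch 1, and 136 and 160.4 against 108 and 122 CPM in batch 3, and its log2 fold change was -0.53 (SE 0.09, adjusted p = 0.00022).

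Cdh11 and Cdh10 went the other way. Cdh11, a type II cadherin typical of mesenchyme that neural cells also carry (chr8:102632995-102785111, minus strand), had 19.7, 26.97 and 34.8 CPM in WT, 25.8, 31.7 and 39.0 in Het and 96.1, 135 and 147 in KO of batch 1. In batch 3 the values were 11.4 and 13.01 CPM in WT and 38.9 and 67.8 CPM in KO. All 5 KO libraries were above all WT and Het libraries of their batch, and Cdh11 rose by 2.18 on the log2 scale (SE 0.19, adjusted p = 8.5e-07). The fibroblast and pericyte list was also higher in KO, as given above, and its part in the rise of Cdh11 was not tested. Cdh10, also type II, had 40.1, 44.7 and 48.8 CPM in WT and 66.2, 70.1 and 84.9 in KO of batch 1, and 24.3 and 31.2 against 67.5 and 73.6 CPM in batch 3, and rose by 0.97 on the log2 scale (SE 0.13, adjusted p = 3.4e-05).

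N-cadherin itself was not called. Cdh2 was at 141, 148 and 167 CPM in WT, 158, 159 and 163 in Het and 163, 166 and 175 in KO of batch 1, with 1 WT library inside the KO range, and at 237 and 269.8 CPM in WT and 249.9 and 283 CPM in KO of batch 3. The log2 fold change was 0.12 (SE 0.06, adjusted p = 0.12). Cdh13, the cadherin that is held in the membrane by a lipid anchor, had a log2 fold change of -0.02 over batches and is taken up with the batches below. Cdh22, Cdh24 and Cdh23 had log2 fold changes of 0.19, -0.10 and -0.83 and were not called. The 12 cadherins below the filter were Cdh1, Cdh3, Cdh5, Cdh7, Cdh8, Cdh9, Cdh12, Cdh15, Cdh16, Cdh17, Cdh18 and Cdh26. They include E-cadherin (Cdh1), the endothelial Cdh5 and the muscle Cdh15. Cdh3, P-cadherin, was at 0 in all 3 WT libraries of batch 1 and had 36 fragments in the 3 KO libraries, at least 3.99-fold higher when 3 counts per WT library are taken as the floor; in batch 3 it had 4 fragments in KO and none in WT.

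Protocadherins were split, with 4 of 10 tested members higher, 4 lower and 2 not called. Pcdh18 (chr3:49743296-49757316, minus strand) had 9.15, 10.8 and 12.6 CPM in WT, 10.5, 11.5 and 12.3 in Het and 46.1, 49.7 and 55.8 in KO of batch 1. In batch 3 it had 11.3 and 14.1 CPM in WT and 44.8 and 46.1 in KO, and it rose by 2.07 on the log2 scale (SE 0.12, adjusted p = 2.3e-08). Every KO library was above every WT and Het library of its batch. Pcdh17 had 42.1, 46.2 and 60.7 CPM in WT, 37.9, 55.5 and 65.8 in Het and 127, 131 and 142 in KO of batch 1, and 31.5 and 35.0 against 105 and 150.3 CPM in batch 3, and rose by 1.63 on the log2 scale (SE 0.17, adjusted p = 2.5e-06). Pcdh19, the X-linked member whose mutation causes an epilepsy of girls, had 27.5, 27.5 and 31.4 CPM in WT and 74.8, 74.9 and 81.8 CPM in KO of batch 1. Its batch 3 values were 35.4 and 50.3 and 95.5 and 147 CPM, and it rose by 1.45 on the log2 scale (SE 0.12, adjusted p = 4.6e-07). Pcdh10, the protocadherin with the highest length-scaled level (40.0 ± 4.92 FPKM in WT of batch 1, n = 3), rose less. Its values were 189, 213 and 241 CPM in WT and 271, 305 and 335 CPM in KO of batch 1, and 108 and 141 against 146 and 235 CPM in batch 3, and its log2 fold change was 0.55 (SE 0.16, adjusted p = 0.0088). An antisense gene overlaps 154 bases of its exons, and without a statement of strand in the counting the reads there cannot be told apart.

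Pcdh15 and Pcdh7 fell. Pcdh15, which with Cdh23 builds the tip links of inner-ear hair cells (chr10:73821867-74649732, plus strand), had 34.2, 44.7 and 53.7 CPM in WT, 21.8, 50.0 and 61.7 in Het and 2.24, 5.85 and 7.29 in KO of batch 1. The batch 3 values were 4.81 and 12.7 CPM in WT and 0.962 and 1.81 in KO. The WT libraries spread widely but none reached down to a KO library of its batch, and Pcdh15 fell by 2.99 on the log2 scale (SE 0.39, adjusted p = 2.2e-05). Its partner Cdh23 was at 0.950 ± 0.306 CPM in WT of batch 1 (SD, n = 3) and was not called. Pcdh7 had 125, 131 and 154 CPM in WT and 68.0, 70.0 and 71.4 CPM in KO of batch 1, and 62.6 and 70.2 against 26.1 and 33.6 CPM in batch 3, and fell by 1.04 on the log2 scale (SE 0.08, adjusted p = 2.9e-07). Pcdh20 (log2 fold change -3.39) and Pcdh8 (-0.94) were also called lower, at low counts (1.85 ± 0.898 and 1.14 ± 0.484 CPM in WT of batch 1; SD, n = 3). The Pcdh8 call was lost when KO replicate 1, WT replicate 1 or WT replicate 2 of batch 1, either KO library of batch 3 or WT replicate 2 of batch 3 was left out. Pcdh9 (-0.44, adjusted p = 0.056) and Pcdh1 (0.28) were not called. Pcdh12 was below the filter.

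In the giant and polarity cadherins, 4 of 7 tested members rose, 1 fell and 2 were not called. Dchs1, the ligand of Fat4, had 135, 137 and 151 CPM in WT, 138, 139.5 and 154 in Het and 319, 323 and 323 in KO of batch 1. In batch 3 it had 204 and 256 CPM in WT and 308 and 422 in KO, and it rose by 0.98 on the log2 scale (SE 0.11, adjusted p = 7.5e-06). The receptor Fat4 rose by 0.54 (SE 0.15, adjusted p = 0.0058). Fat3 moved the other way, with 215, 229.9 and 262 CPM in WT, 223, 232 and 234 in Het and 113, 117 and 123 in KO of batch 1 and 118 and 118 against 32.4 and 66.1 CPM in batch 3, and it fell by 1.10 on the log2 scale (SE 0.14, adjusted p = 1.9e-05). Fat1 had the highest length-scaled level of all members in WT of batch 1 (56.3 ± 1.78 FPKM, n = 3) and was not called. It stood at 763, 809.8 and 843 CPM in WT and 1013, 1041 and 1047 CPM in KO of batch 1, where the groups did not overlap, and at 572 and 657 against 419 and 726 CPM in batch 3, where the KO libraries lay on both sides of WT. The deposited quantification status of its locus was FAIL in at least 1 library of batch 3, as was that of Fat3 and of Nlgn1 in batch 1.

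Celsr1 and Celsr2 rose while Celsr3 did not pass the test. Celsr1 had 14.4, 24.1 and 25.6 CPM in WT, 20.6, 25.7 and 28.5 in Het and 88.7, 109 and 134 in KO of batch 1, and 8.41 and 16.6 against 11.4 and 23.5 CPM in batch 3, where WT and KO overlapped. Over batches it rose by 1.67 on the log2 scale (SE 0.36, adjusted p = 0.0012). Celsr2 had 32.4, 35.8 and 40.8 CPM in WT and 71.2, 89.1 and 90.7 in KO of batch 1, and 102 and 114 against 134 and 181 CPM in batch 3, and rose by 0.93 on the log2 scale (SE 0.13, adjusted p = 4.6e-05). Celsr3, the form typical of neurons, was at 4.91 ± 0.262 CPM in WT of batch 1 (SD, n = 3; log2 fold change -0.40, adjusted p = 0.33). Of 11 other genes of planar polarity, 5 were higher in KO, 3 lower and 3 not called, with a median log2 fold change of 0.22. Vangl2, the core membrane partner of Celsr proteins, rose by 0.88 (adjusted p = 1.4e-05), from 66.3 ± 1.77 to 139 ± 7.87 CPM in batch 1 (SD, n = 3 and 3) and from 49.2 ± 4.78 to 74.6 ± 19.5 CPM in batch 3 (n = 2 and 2). Fzd6 rose by 1.84 and Prickle2 by 1.34, while Fjx1, the kinase homologue that modifies Fat and Dchs repeats, was lower (adjusted p over batches 6.9e-05). Fjx1 had 118 ± 8.35 CPM in WT, 82.4 ± 13.9 in Het and 71.0 ± 13.996 in KO of batch 1 (SD, n = 3 each), and 123 ± 1.85 against 46.3 ± 9.68 CPM in batch 3 (n = 2 and 2).

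**Figure D2:**
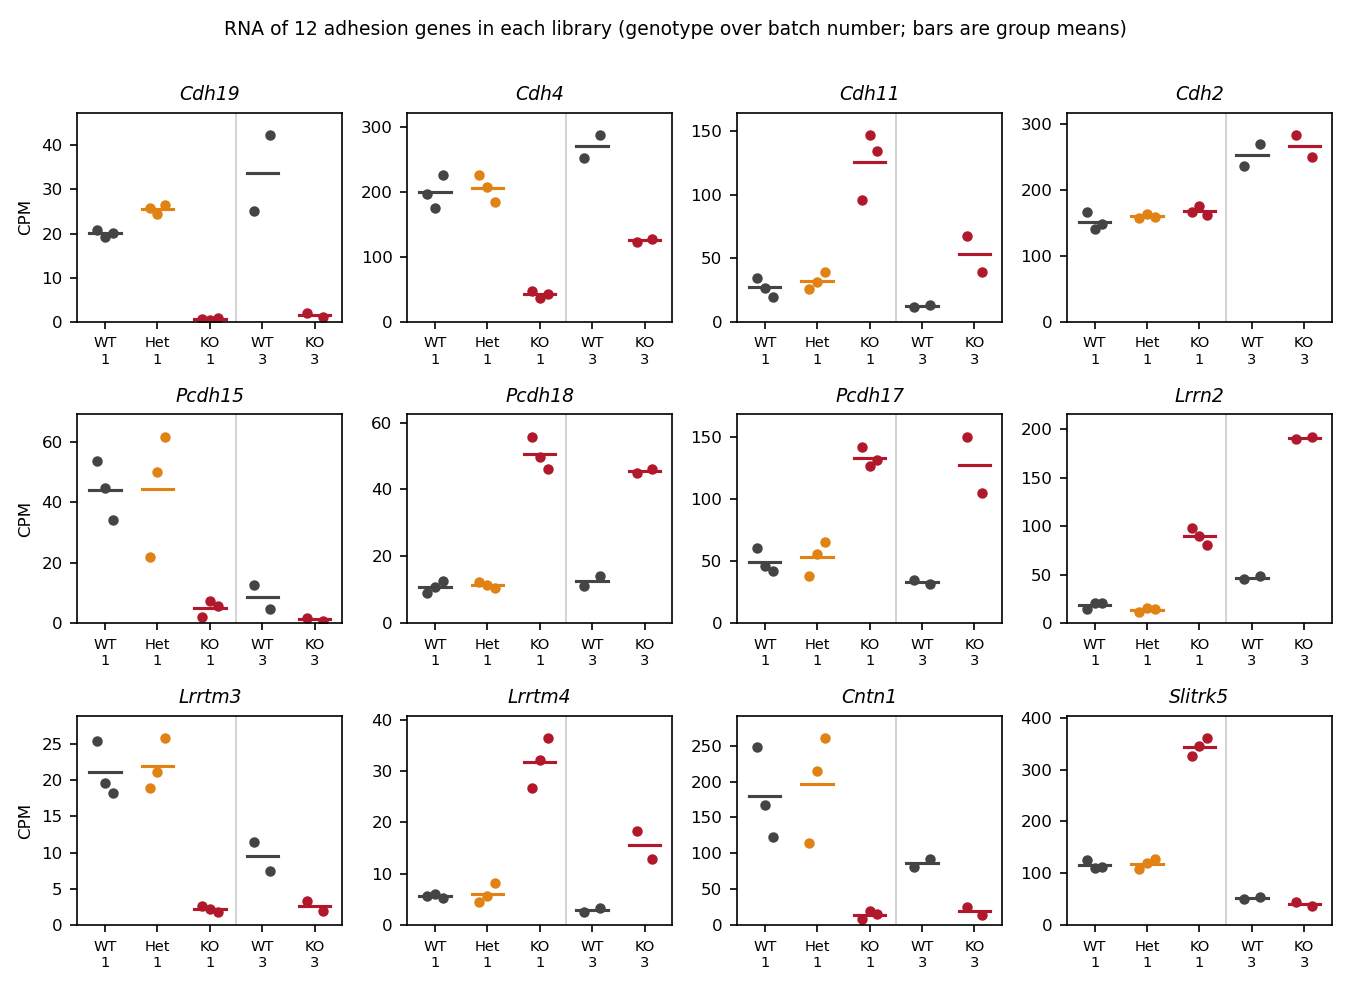
RNA level in each library (points, CPM on an axis from 0) for 12 members, with group means as bars, by genotype within batch 1 (WT, Het, KO) and batch 3 (WT, KO) along the horizontal axis. Cdh19, Cdh4, Pcdh15, Lrrtm3 and Cntn1 are lower and Cdh11, Pcdh17, Pcdh18, Lrrn2 and Lrrtm4 higher in every KO library than in every WT library of its batch, Cdh2 overlaps in both batches, and Slitrk5 is higher in KO in batch 1 and lower in batch 3.

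Of the 15 synaptic organisers tested, 9 were higher in KO, 3 lower and 3 not called, with a median log2 fold change of 0.61. Among all genes, 32.8% were called higher and 30.8% lower. Neurexins and their partners are given first. Nrxn2, a neurexin, had 34.5, 37.7 and 43.1 CPM in WT and 50.3, 51.7 and 59.1 CPM in KO of batch 1, and 58.4 and 75.2 against 139 and 146 CPM in batch 3, and rose by 0.73 on the log2 scale (SE 0.12, adjusted p = 0.00015). Nrxn3 (log2 fold change 0.40, adjusted p = 0.13) was not called.

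Of the neurexin partners, Nlgn2, the neuroligin of inhibitory synapses, rose by 0.90 (SE 0.08, adjusted p = 1.0e-06) and Nlgn3 by less. Nlgn3 libraries had 123, 129 and 147 CPM in WT and 163, 172 and 185 in KO of batch 1, and 107 and 133 against 127 and 173 CPM in batch 3, where they overlapped, and the log2 fold change was 0.36 (SE 0.10, adjusted p = 0.0086). That call was lost without 1 KO library of batch 3 (replicate 1) and with limma on log2 FPKM. Nlgn1, the neuroligin of excitatory synapses, had 0.30 (adjusted p = 0.056) and was not called. Lrrtm genes, which encode leucine-rich repeat ligands of neurexins, split. Lrrtm4 (chr6:80018877-80810143, plus strand) had 5.21, 5.68 and 6.10 CPM in WT, 4.405, 5.73 and 8.10 in Het and 26.7, 32.2 and 36.4 in KO of batch 1. In batch 3 it had 2.56 and 3.25 CPM in WT and 12.8 and 18.4 in KO, and it rose by 2.46 on the log2 scale (SE 0.17, adjusted p = 1.2e-07). Lrrtm3 (chr10:63928497-64090255, minus strand), which lies inside Ctnna3 on the other strand and shares no exon bases with it, fell in the same cells. Its libraries had 18.3, 19.6 and 25.5 CPM in WT, 18.97, 21.2 and 25.8 in Het and 1.83, 2.25 and 2.62 in KO of batch 1, and 7.495 and 11.5 against 1.98 and 3.34 CPM in batch 3, and it fell by 2.69 on the log2 scale (SE 0.27, adjusted p = 2.0e-06). The host gene Ctnna3 was below the filter, at a mean of 0 CPM in WT and 0.0197 CPM in KO of batch 1. Lrrtm2 (log2 fold change 0.27) and, in batch 3 alone, Lrrtm1 (-0.02) were not called.

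Slitrk genes, whose products bind the receptor phosphatases Ptprd and Ptprs, had log2 fold changes from -1.42 to 3.17. Slitrk6 rose by 3.17 on the log2 scale (SE 0.52, adjusted p = 0.00014). It went from 0.281 ± 0.333 to 2.44 ± 0.456 CPM in batch 1 (SD, n = 3 and 3), and its mean over the libraries was too low for the rule on values per library. Its batch 3 libraries had at most 2 fragments in WT and at most 15 in KO. Slitrk3 had 6.01, 8.48 and 8.90 CPM in WT and 13.1, 18.6 and 23.8 in KO of batch 1, and 3.11 and 4.72 against 4.87 and 14.9 CPM in batch 3, and rose by 1.27 on the log2 scale (SE 0.31, adjusted p = 0.0028). Slitrk1 had 5.76, 5.96 and 7.19 CPM in WT and 1.47, 3.07 and 3.91 in KO of batch 1, and 3.04 and 3.21 against 0.541 and 1.04 CPM in batch 3, and fell by 1.42 on the log2 scale (SE 0.31, adjusted p = 0.0013). Slitrk4 was near 1 CPM (1.28, 1.66 and 1.83 in WT and 0.546, 0.878 and 0.948 in KO of batch 1, 1.57 and 1.63 against 0.962 and 1.81 in batch 3), with overlap in batch 3. Its call with a fitted log2 fold change of -0.67 (SE 0.26, adjusted p = 0.036) was lost when any KO library, or WT replicate 1 or 2, of batch 1 or KO replicate 2 of batch 3 was left out, and with limma on log2(FPKM + 1). Slitrk2 rose by 0.61 (adjusted p = 0.0034), and Slitrk5 is taken up with the batches.

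Scaffolds and receptors that work beside these organisers were counted from a list. Of 23 such partners, 13 were called higher, 1 lower and 9 not called, with a median log2 fold change of 0.42. Of all genes tested, 32.8% were called higher and 30.8% lower. Flrt3, a leucine-rich repeat protein that binds latrophilins, rose by 1.51 (adjusted p = 1.8e-06), from 40.1 ± 4.57 to 95.7 ± 8.12 CPM in batch 1 (SD, n = 3 and 3) and from 29.5 ± 7.00 to 109.7 ± 27.6 CPM in batch 3 (n = 2 and 2). Its receptor Lphn3 (now Adgrl3) rose by 0.99 and the Slitrk receptor Ptprd by 1.32 (adjusted p = 3.9e-05 and 2.4e-05). Dlg4, the scaffold PSD-95, was the 1 partner called lower, at -0.31 (adjusted p = 0.007).

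All 4 Lrrn genes, which encode leucine-rich repeat membrane proteins of neural cells, were called, as were 63.6% of all genes. Lrrn2 (chr1:132880355-132940005, plus strand) had 14.6, 21.3 and 21.5 CPM in WT, 12.1, 14.3 and 16.3 in Het and 80.6, 90.3 and 98.4 in KO of batch 1. Its batch 3 libraries had 45.3 and 48.9 CPM in WT and 190.3 and 192 in KO, and it rose by 2.14 on the log2 scale (SE 0.11, adjusted p = 1.7e-08). No KO library overlapped WT in either batch. Lrrn1 had 141, 159 and 159 CPM in WT, 125, 193 and 198 in Het and 535, 578 and 598 in KO of batch 1, and 138 and 167 against 254 and 384 CPM in batch 3, and rose by 1.57 on the log2 scale (SE 0.18, adjusted p = 6.8e-06). Lrrn3, which lies inside Immp2l on the other strand with no shared exon bases, had 48.6, 55.8 and 62.8 CPM in WT and 106, 113 and 125 in KO of batch 1, and 35.5 and 41.2 against 43.0 and 44.7 CPM in batch 3, and rose by 0.71 on the log2 scale (SE 0.15, adjusted p = 0.00092). That call was lost with limma on log2 FPKM at either pseudocount. Lrrn4 was the one that fell, at low counts: 1.72, 2.27 and 2.55 CPM in WT and 0.146, 0.218 and 0.237 in KO of batch 1, and 2.296 and 3.54 against 0.421 and 0.627 CPM in batch 3. It fell by 2.93 on the log2 scale (SE 0.29, adjusted p = 2.0e-06).

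Contactins, contactin-associated proteins and Ncam genes were mostly lower or not called: 1 of 10 rose, 4 fell and 5 were not called, with a median log2 fold change of -0.87. Cntn1 (chr15:92051165-92341967, plus strand), a lipid-anchored immunoglobulin protein of axons and oligodendrocyte contacts, had 123, 167 and 248 CPM in WT, 114, 215 and 260.2 in Het and 7.86, 15.9 and 19.4 in KO of batch 1. In batch 3 it had 81.5 and 92.6 CPM in WT and 14.1 and 24.5 in KO, and it fell by 3.06 on the log2 scale (SE 0.37, adjusted p = 1.0e-05). No KO library reached the lowest WT library of its batch. Cntn3 had 3.14, 6.43 and 7.26 CPM in WT and 0.512, 0.533 and 0.765 in KO of batch 1, and 5.51 and 6.08 against 2.37 and 2.47 CPM in batch 3, and fell by 2.24 on the log2 scale (SE 0.35, adjusted p = 9.3e-05). Cntnap4, a neurexin-like protein of interneurons, had 6.03, 7.08 and 9.53 CPM in WT and 0.951, 1.15 and 1.66 in KO of batch 1, and 3.15 and 7.78 against 1.20 and 2.51 CPM in batch 3, and fell by 2.16 on the log2 scale (SE 0.31, adjusted p = 4.7e-05).

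The Ncam pair moved apart. Ncam1, the homophilic molecule that carries polysialic acid in the young brain, had 203, 212 and 276 CPM in WT, 263, 265 and 268 in Het and 432, 546 and 588 in KO of batch 1, and 187 and 226 against 208 and 291 CPM in batch 3, where the groups overlapped. Over batches it rose by 0.82 on the log2 scale (SE 0.17, adjusted p = 0.00097). The gene Gm11149 on the other strand overlaps 263 bases of its exons, and reads there cannot be told apart. Ncam2, its relative of olfactory axons, had 52.7, 67.3 and 70.3 CPM in WT and 22.9, 26.9 and 27.2 in KO of batch 1. In batch 3, where the groups overlapped, it had 17.4 and 23.6 CPM in WT and 12.7 and 18.5 in KO. Over batches Ncam2 fell by 0.96 on the log2 scale (SE 0.19, adjusted p = 0.00054). In the related L1 family, Nrcam rose by 0.62 and Nfasc by 1.05 (adjusted p = 0.0095 and 0.0041). Chl1, a close homologue of L1, went from 72.6 ± 27.4 to 6.79 ± 1.118 CPM in batch 1 (SD, n = 3 and 3) and from 30.6 ± 5.48 to 13.7 ± 3.20 CPM in batch 3 (n = 2 and 2), a log2 fold change over batches of -2.51 (adjusted p = 9.6e-05). L1cam was below the filter. Of the cytoplasmic side of cadherin junctions, 4 of 12 tested catenins and junction partners were higher and 2 lower. Ctnnb1 (beta-catenin) had a log2 fold change of 0.00015 and Ctnna1 of 0.07, and neither was called, whereas Pkp4, a catenin of the p120 family, had -1.24 (adjusted p = 1.4e-06).

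In Het cells, which keep 1 Mettl14 copy, none of the 57 members was called against WT by edgeR, where 0.00742% of all genes (1 of 13471) was, and 1 member had an unadjusted p under 0.05. DESeq2 and limma on log2 FPKM at either pseudocount also called 0 members, with 1 and 0 at an unadjusted p under 0.05. All of these used the fit over both batches, although Het libraries exist in batch 1 only. Het against WT was not tested in batch 1 alone. The spread estimated by edgeR (common dispersion) was 0.0231 over both batches and 0.0123 in batch 1 alone, so smaller Het effects may have been missed. The median size of the log2 fold change was 0.15 in the members and 0.10 in all genes. KO against Het, which shares the KO libraries with the comparison above, called 37 of 57 members, 20 higher and 17 lower, with 58.2% of all genes called (30.0% higher and 28.2% lower). Against Het, Cdh19 had a log2 fold change of -5.07 and Lrrtm4 one of 2.37.

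Each batch was also fitted alone. In batch 1, 42 of 58 members were called (25 higher, 17 lower; 69.3% of all genes), and in batch 3, 26 of 55 (15 higher, 11 lower; 31.7% of all genes). Batch 3 has 2 libraries a group, and the split turned with the KO library left out: 13 higher and 20 lower without KO replicate 1, and 24 higher and 9 lower without KO replicate 2. With limma on log2 FPKM it was 11 and 12 at the larger pseudocount and 12 and 14 at the smaller. Cdh19 had log2 fold changes of -4.91 and -4.48 in the separate fits, Lrrtm4 2.45 and 2.42, Cdh11 2.18 and 2.13, and Lrrn2 2.19 and 2.02, all 8 called. An interaction term tested the difference between batches directly and called 13 of 60 members (6 with the higher value in batch 3 and 7 with the lower), against 18.9% of all genes (10.7% and 8.2%). In that fit the KO effect itself was called for 42 of 60 members in batch 1 (65.1% of all genes) and for 35 of 60 in batch 3 (44.4% of all genes). The count of members that differed was 8 with limma on log2 FPKM at either pseudocount and 5 to 17 when 1 library was left out, lowest without KO replicate 3 of batch 1. Its split was 3 higher and 14 lower without KO replicate 1 of batch 3, and 6 higher and 2 lower without KO replicate 2 of batch 3. No protocadherin was among the 13.

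Among these, Slitrk5 had the lowest adjusted p. It had 111, 111 and 125 CPM in WT, 108, 119.7 and 127 in Het and 326, 345 and 360.2 in KO of batch 1, and 51.1 and 54.9 in WT and 37.5 and 45.1 in KO of batch 3. KO libraries were thus all above WT in batch 1 and both below WT in batch 3, the only member of the 57 whose groups were separate in opposite directions, and the effect in batch 3 minus that in batch 1 was -1.93 (SE 0.14, adjusted p = 1.1e-05). Its call over batches, with a fitted log2 fold change of 0.84 (SE 0.28, adjusted p = 0.018), was lost without any 1 WT library of batch 1 and with limma on log2 FPKM. Cdh4 fell less in batch 3, by a difference of 1.13 (SE 0.17, adjusted p = 0.0019), and so did Cntn3 and Lrrtm3. Celsr1, Lrrn3 and Ncam1 rose by 2.36, 1.04 and 1.18 in batch 1 in the interaction fit, all called, and had 0.47, 0.19 and 0.27 in batch 3, none called. Cntn2, the axonal glycoprotein TAG-1, had 0.442, 0.905 and 1.06 CPM in WT and 1.20, 2.27 and 2.61 in KO of batch 1, and 0.919 and 1.84 against 0.180 and 0.975 CPM in batch 3. Its effect was called in batch 1 of that fit and not in batch 3, where the groups overlapped. Cdh13 had 116, 116 and 135 CPM in WT and 89.1, 96.8 and 120.1 in KO of batch 1 and 88.2 and 93.5 against 98.1 and 130.4 CPM in batch 3. It was called in neither batch of that fit, although the difference was. The summed astrocyte markers are given by batch above, and their part in these differences was not tested. Levels themselves cannot be set across the batches by a test, since the tables come from separate assemblies: Pcdh9 was at 541 ± 35.3 CPM in WT of batch 1 (SD, n = 3) and 31.9 ± 2.87 in WT of batch 3 (n = 2), and Nlgn1 at 205 ± 13.01 and 22.5 ± 0.485.

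**Figure D3:**
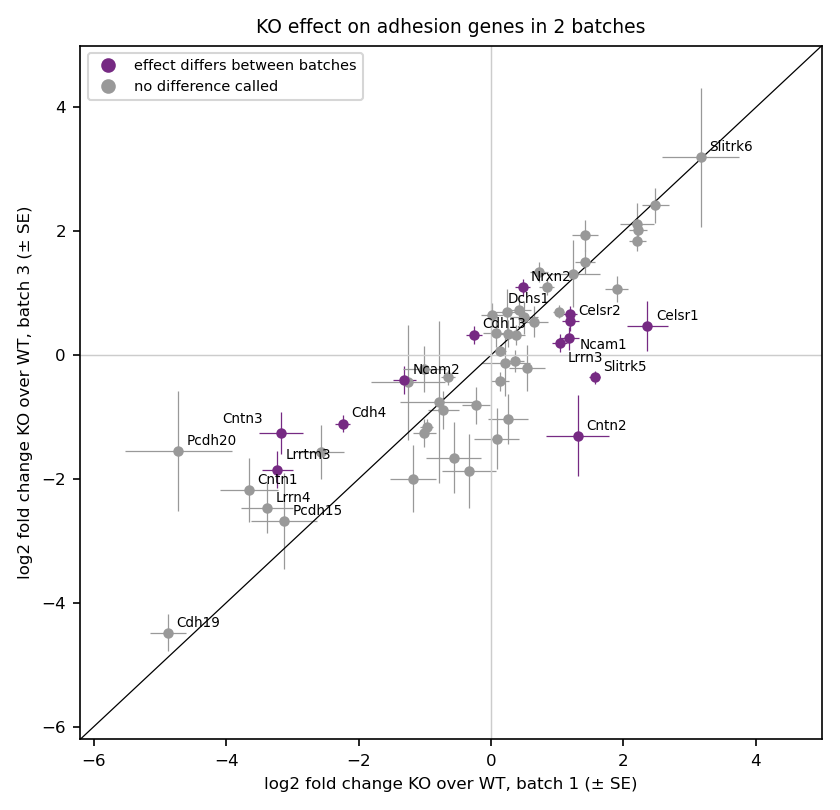
Log2 fold change of KO over WT in batch 1 (horizontal axis) and batch 3 (vertical axis), each ± SE, from the interaction fit, for the 57 members tested over batches. Purple points are members whose effect differed between batches and the line marks equal effects. Slitrk5 and Cntn2 lie at the lower right, with opposite signs in the batches.

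Over the 13 libraries, after the mean of each batch was taken off, the members whose log2 CPM followed Cdh19 most closely were Fat3 (Spearman's rho 0.86), Cntnap4 (0.84) and Pcdh9 (0.82). The points share the genotype groups and the libraries, so this orders the members and is not a test.

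Histone marks were read at each RefSeq start, within 1000 bases either side, from the peaks the authors called in each line. H3K27ac was present at 33 of the 77 members in all 4 lines (42.9%), against 53.4% of 23895 genes with a RefSeq start. Of the 57 members tested for RNA, 32 carried it in all lines (56.1%) and 14 in no line (24.6%), against 85.1% and 7.21% of all genes tested. When the starts of the authors' assembled transcripts were added, 10 of 57 had the mark in no line (17.5%, against 5.91%). Fat1, Fat3, Cdh10 and Nlgn2 were among those with no peak at a RefSeq start and peaks at an assembled start. H3K27me3 was present in all lines at 19 of 77 members (24.7%, against 11.2% of all genes). Both marks lay at 8 members in both WT lines (10.4%, against 5.78%). H3K27me3 was high at some members with little RNA. Cdh1, the E-cadherin gene, had fold enrichments over input of 11.1 and 10.9 in WT lines 532 and 541 and 10.8 and 12.2 in KO lines 530 and 534, and Pcdh8 had 10.6 and 12.5 and 9.02 and 10.3. Cdh2 had the opposite pattern, H3K27ac at 9.96 and 9.97 in WT and 9.19 and 11.95 in KO and no H3K27me3 peak. Fold enrichments here are the authors' values for each peak. The H3K27ac lists held 80947 and 55130 peaks in WT lines 532 and 541 and 55633 and 63189 in KO lines 530 and 534. Those of H3K27me3 held 58863 and 33188 in WT and 43186 and 59561 in KO. The part of list length in the presence of a peak was not tested.

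Some members had peaks by genotype. Lrrtm3 had H3K27ac at 5.91 and 3.37-fold in the WT lines and no peak in the KO lines. Pcdh15 had 4.08 and 3.77-fold in WT and none in KO. Lrrtm4 was the reverse, with no peak in WT and 3.80 and 2.90-fold in KO. The RNA of all 3 differed in the same direction as the mark, also in batch 3 alone, whose lines carry the same numbers (log2 fold changes -1.84, -2.66 and 2.42, all called). Over all genes tested, 105 had the acetylation in both WT lines only, of which 49.5% were lower in KO and 13.3% higher, and 34 had it in both KO lines only, of which 61.8% were higher and 11.8% lower. The Pcdh15 peaks covered the printed promoter's downstream end (chr10:73821671-73822287 in line 532 and chr10:73821706-73821929 in line 541). The Lrrtm3 peaks ended within 10 bases of its start (chr10:64089792-64090260 and chr10:64089727-64090265), and those of Lrrtm4 lay inside the gene, downstream of the start (chr6:80019392-80019742 in line 530 and chr6:80019694-80019890 in line 534). They were modest peaks, and those of Lrrtm4 in line 534 and Lrrtm3 in line 541 had a −log10 q of 1.44 and 2.56.

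H3K27me3 was called in both KO lines and neither WT line at Cntn1, Cdh6, Slitrk4, Cdh5 and Cdh12. Cntn1 had 2.84 and 3.07-fold and Cdh6 3.64 and 3.75-fold in KO, and Cdh6 had H3K27ac in all 4 lines. H3K27ac peaks near the starts of Cntn1 lay in 2 places. Both WT lines had a peak in each, whereas KO line 534 had one only at the printed promoter (chr15:92051058-92051986) and KO line 530 only downstream (chr15:92161500-92161972). The 3 of these 5 that were tested for RNA, Cntn1, Cdh6 and Slitrk4, were all called lower in KO over batches. In batch 3, whose lines carry the same numbers, the KO libraries of Cntn1 and Cdh6 lay below WT. Slitrk4 overlapped there (1.57 and 1.63 CPM in WT, 0.962 and 1.81 CPM in KO). Its call over batches was lost in 7 of 20 alternatives. Over all genes tested, 162 had H3K27me3 in both KO lines only, of which 57.4% were lower and 12.3% higher in KO. Cdh15 was the 1 member with the mark in both WT lines only and was below the RNA filter. The Cntn1 peaks overlapped its printed promoter (chr15:92051030-92051941 in line 530 and chr15:92051090-92051736 in line 534), at a −log10 q of 1.30 and 1.61. In the same lines it was 1.33 and 1.92 at Cdh5, 2.69 and 3.04 at Cdh6 and 3.43 and 2.54 at Cdh12. At Slitrk4 it was at most 1.64 and 2.04. With 2 lines against 2, no exact test of such a pattern can go below a two-sided p of 0.333, so these are descriptions. Members with large RNA changes did not all show one: Cdh19 had no peak of either mark at its start in any line, and Lrrn2 had H3K27ac at 5.52 and 4.72-fold in WT and 7.06 and 6.83-fold in KO.

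**Figure D4:**
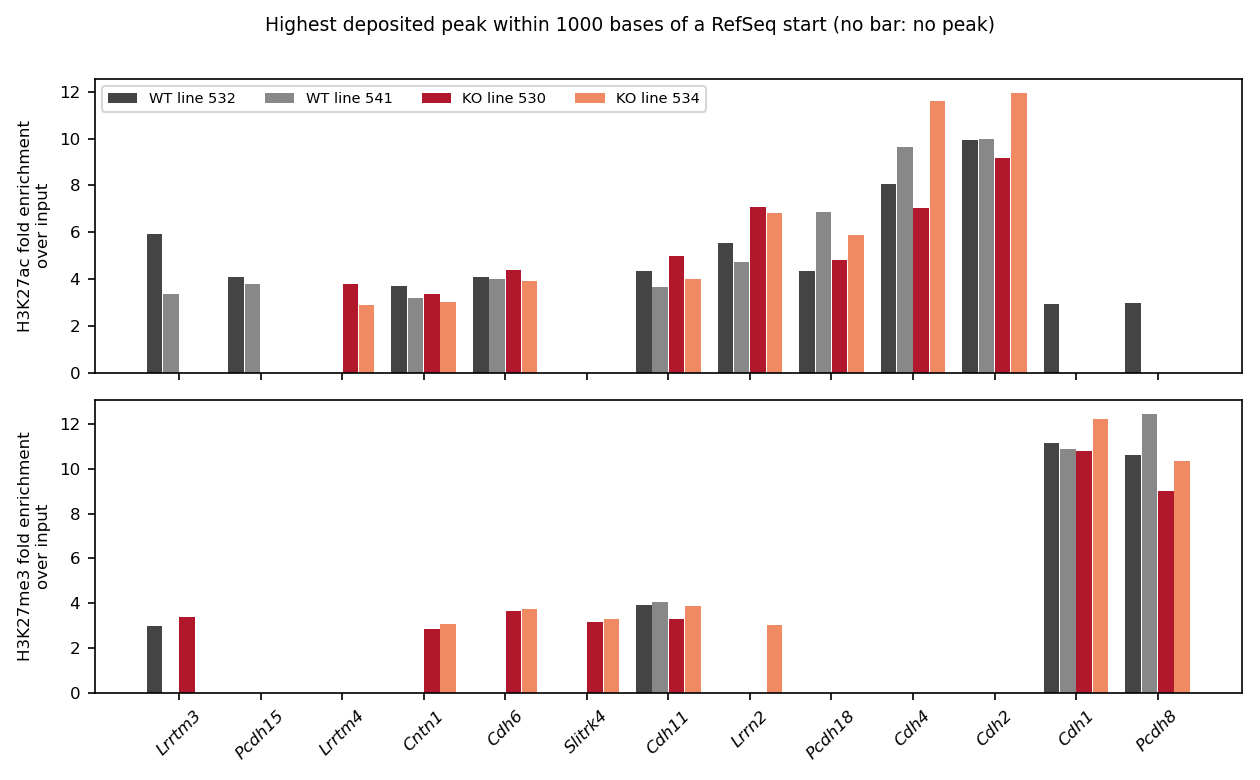
Fold enrichment over input of the highest H3K27ac peak (top) and H3K27me3 peak (bottom) within 1000 bases of a RefSeq start, for 13 members in WT lines 532 and 541 and KO lines 530 and 534 (bars from 0; no bar means no peak). Lrrtm3 and Pcdh15 have H3K27ac bars in WT alone, Lrrtm4 in KO alone, and Cntn1, Cdh6 and Slitrk4 have H3K27me3 bars in KO alone.

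m6A was mapped in WT cells only. A gene was counted as marked when an enriched region lay on its RefSeq exons in all 4 lists, which pair each of 2 immunoprecipitates with each of 2 inputs and so are not independent. By that rule 41 of the 77 were marked, 40 of them among the 57 tested for RNA (70.2%), against 41.7% of all genes tested. The unmarked tested members had a median level of 0.612 FPKM in WT of batch 1 and the marked ones 10.1 FPKM. For all genes the medians were 7.20 and 12.1 FPKM, and the median exon length was 5419 bases in marked members, 5183 in unmarked members and 3717 in marked genes at large. Fat4 had 13 to 18 regions per list on 16107 exonic bases, Fat3 9 to 10, Fat1 8 to 11 and Dchs1 6 to 11. The highest fold enrichments were at Pcdh17 (7.68 to 8.69 over the lists) and Pcdh10 (5.12 to 9.23). In the 4 lists, 42.7% to 46.3% of the regions on marked members lay on the last exon of a transcript and 29.5% to 30.6% on the first, and 39 of the 41 members had a last-exon region in every list. A region that touched the last exon of any transcript was counted as last and not as first, also where a gene has a single exon. The same shares were not counted over all genes. The Pcdh17 regions were spread over its long first exon, with the strongest at chr14:84443766-84444005, and its last exon carried one at chr14:84532916-84533695 (positions here are from 1 of the lists).

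RNA calls were then counted by m6A mark. Of 40 marked and tested members, 22 were called higher and 10 lower (55.0% and 25.0%, median log2 fold change 0.54). Of 17 unmarked members, 1 was higher and 7 lower (median -0.77). Over all genes tested, 42.7% of marked genes were higher and 26.3% lower, and 25.5% of unmarked genes were higher and 34.2% lower, with medians of 0.14 and -0.06. The single unmarked member that rose was Ncam1. Unmarked here means not in all 4 lists, and Ncam1 itself had a region in some of them. So did Lrrn4, Ncam2, Pcdh8 and Pcdh20, which were called lower, and Cdh13 and Nrxn3, which were not called. Marked members that fell include Cdh19, with 2 regions per list (4.06 to 4.81-fold), Cntn1 (4.85 to 5.55-fold), Pcdh15 and Lrrtm3 (4.56 to 6.19-fold). Marked members that rose include Lrrtm4 (3 regions, 5.01 to 6.18-fold), Cdh11 (5.93 to 7.02-fold) and Slitrk6 (4.54 to 4.78-fold). The RNA of Slitrk6 was near the floor in WT, with a mean of 0.055 FPKM in batch 1 and 0.016 FPKM in batch 3. The strongest Cdh11 region lay on its last exon (chr8:102634140-102634586) and that of Lrrtm3 on its last exon too (chr10:63929970-63930146). The level differs between marked and unmarked members, as given above, and its part in the difference was not tested.

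**Figure D5:**
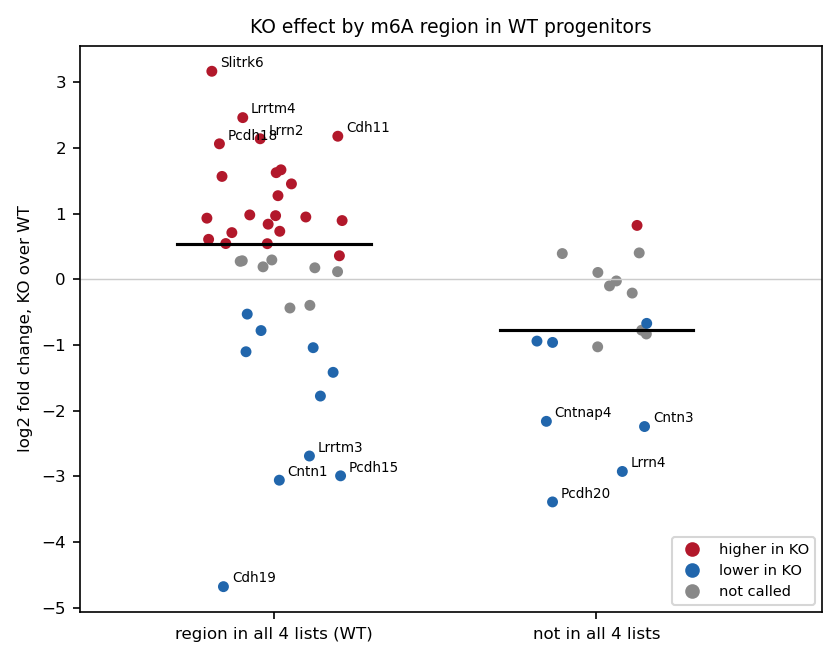
Log2 fold change of KO over WT (vertical axis) for tested members by m6A region in WT cells (horizontal axis). The groups are the 40 members with a region in all 4 lists and the 17 that were not in all 4. Points are genes coloured by call and bars are medians, at 0.54 and -0.77.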

How the data were processed

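RNA (13 libraries, 14087371 to 20046524 fragments), histone marks and m6A were read from deposited files. The authors deposited raw fragments as estimated counts and FPKM per locus, per the file headers. Bowtie2 2.3.1, TopHat2 2.1.0, Cufflinks, Cuffdiff, MACS2 and mm10 are named in the submitters' processing notes. Peak lists give a deposited fold enrichment (ratio) and −log10 q per peak, called per line for histones and per pair of immunoprecipitate and input for m6A. The table for batch 2 held the same values as that for batch 1, and the 6 libraries labelled batch 2 were not analysed here. Strand use in counting is not given in the sources used here.

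Fragments were rounded (5.31% and 2.31% of values were not whole at a tolerance of 1e-09 in batches 1 and 3) and summed by gene name. Loci with no known gene (1.47% and 0.416% of fragments) and 3 loci with status HIDATA (2 and 1 by batch) were left out. edgeR 4.0.16 (R 4.3.3; filterByExpr, TMM, robust quasi-likelihood test, Benjamini-Hochberg adjustment over all genes tested) was fitted over all 13 libraries with batch as covariate, per batch, and with an interaction of KO and batch. CPM were computed here with TMM factors of 0.969 to 1.04. Scripts were tested on simulated data. Alternatives were DESeq2 1.42.0, limma 3.58.1 on log2(FPKM + 1) and log2(FPKM + 0.1), no TMM factors, no low-count filter, joined loci left out, Het left out, each library left out, and other windows, starts and thresholds for peaks. Starts of assembled transcripts were added after seeing the data.

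Values per library are given for up to 3 called rises and 3 falls per family at a mean of at least 1 CPM, the 2 members per family with the highest WT FPKM in batch 1, and members whose effect differed between batches. Members and gene lists were chosen with earlier results of these data known. Some items are not reported here by name, and they remain in the counts.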

Additional observations from a re-analysis of the deposited data

Results flagged for a closer look

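The KO effect differed between batch 1 and batch 3 in 13 members by edgeR's interaction test, and the values are effects in batch 3 minus batch 1 on the log2 scale. Opposite signs in the batches were seen for Slitrk5 (-1.93 (SE 0.14, adjusted p = 1.1e-05)), Cntn2 (-2.61 (SE 0.81, adjusted p = 0.039)) and Cdh13 (0.59 (SE 0.19, adjusted p = 0.044)). Of these, Slitrk5 was called in each batch of that fit, Cntn2 in batch 1 alone and Cdh13 in neither. A smaller rise in batch 3 was seen for Celsr1 (-1.89 (SE 0.51, adjusted p = 0.027)), Ncam1 (-0.90 (SE 0.24, adjusted p = 0.022)), Lrrn3 (-0.84 (SE 0.19, adjusted p = 0.01)), Celsr2 (-0.65 (SE 0.19, adjusted p = 0.033)) and Dchs1 (-0.52 (SE 0.17, adjusted p = 0.05)). Nrxn2 had a larger rise in batch 3 (0.62 (SE 0.17, adjusted p = 0.028)). A smaller fall in batch 3 was seen for Cntn3 (1.92 (SE 0.49, adjusted p = 0.019)), Lrrtm3 (1.38 (SE 0.39, adjusted p = 0.028)), Cdh4 (1.13 (SE 0.17, adjusted p = 0.0019)) and Ncam2 (0.91 (SE 0.28, adjusted p = 0.041)). Like Celsr1, Ncam1 and Lrrn3 above, Ncam2 was not called in batch 3 of that fit (log2 fold change -0.40, adjusted p = 0.17). The WT and KO libraries of Ncam2 overlapped there. Batch 3 was made from other lines than batch 1, so batch and line cannot be told apart.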

How the results depend on the processing

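The number of members called for KO against WT over batches was 40 and ran from 37 to 46 over the 20 alternatives run. Of the 40, 35 were called in all 20, 5 were lost in at least 1 (Lrrn3, Nlgn3, Pcdh8, Slitrk4 and Slitrk5) and 0 changed sign. The count for KO against Het ran from 34 to 41, for batch 1 from 40 to 46, for batch 3 from 23 to 33, and for Het against WT it was 0 under every alternative. Every alternative for Het against WT was a fit over both batches. The count whose effect differed between batches, 13, was 8 with limma on log2(FPKM + 1) and 8 on log2(FPKM + 0.1), and 5 to 17 when 1 library was left out. It was lower by more than 1.5 times without KO replicate 3 of batch 1 (5), KO replicate 2 of batch 1 (6), WT replicate 1 of batch 1 (6), WT replicate 2 of batch 3 (7), KO replicate 2 of batch 3 (8) or WT replicate 1 of batch 3 (8). The cause was not tested. H3K27me3 in all lines went from 19 members to 9 at a −log10 q of at least 3, H3K27ac ran from 26 to 39, and m6A from 34 to 48. In batch 3, the share of called members that were higher was 57.7%, and 47.8% and 46.2% with limma at the larger and smaller pseudocount, and 39.4% without KO replicate 1 and 72.7% without KO replicate 2 of that batch. No paired analysis was possible because the groups are separate lines and the replicate numbers in the tables are not tied to a shared animal, litter or day. Low counts limit Pcdh8, Pcdh20, Slitrk4, Slitrk6, Lrrn4, Cntn2 and the 19 members below the filter.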
